A study of Mus musculus with 3 samples.

Results

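The integrated stress response was followed through 9 genes: Eif2ak3, Atf4, Atf3, Ddit3, Trib3, Asns, Chac1, Sesn2 and Ppp1r15a. They were taken by name from the 24119 genes of the deposited tables, and all 9 were found, with at least 100 normalized counts in a library of each pair, and tested in each comparison. RNA had been sequenced from pancreatic islets of male C57BL/6 mice. HFD_CGP islets came from mice on a high-fat diet that were gavaged with CGP 57380, an inhibitor of the MNK kinases, and HFD_DMSO islets from mice on that diet gavaged with the solvent DMSO. ND islets came from DMSO-gavaged mice on the diet labelled ND, so that every group was gavaged, in each case for 1 month. The labels also give 4 months, without saying whether this is an age or a time on diet, and do not give the number of animals behind a library. Each of the 3 groups is 1 library, so that no difference below has a replicate check, and each compares libraries and not diets or treatments.

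When unfolded proteins build up in the endoplasmic reticulum, the membrane kinase PERK phosphorylates the translation factor eIF2α, which lowers protein synthesis overall while ribosomes are allowed onto the main reading frame of the Atf4 mRNA. ATF4 is therefore controlled largely at translation, and its mRNA level is an incomplete measure of its activity. ATF4 binds DNA with C/EBP partners and switches on genes for amino acid supply, further transcription factors such as CHOP, and a feedback phosphatase subunit, GADD34, which restores eIF2α. The arm is studied in islets because beta cells make large amounts of proinsulin and because loss of PERK in mice and people causes diabetes.

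The promoter sequences that match the site known to be bound by ATF4 with C/EBP proteins are shown first, because most of the 9 genes are described as ATF4 targets and the match is the feature they could share. Windows of 300 bases around RefSeq starts on GRCm38.p6 were searched on both strands for the C/EBP-ATF core TGATGNAA and for the cyclic AMP response element TGACGTCA, a palindrome. No window of the 9 genes held both motifs. The core was present in 4 of the 9 windows (44.4%), in 16 of the 55 genes of a wider pathway list that had a window (29.1%) and in 4.51% of the 27025 genes of the RefSeq table. Most of the 9 genes and many of the wider list are known as ATF4 targets, so the counts describe them and are no independent evidence. Each stretch is written 5′ to 3′ on the gene's own strand with the matched letters in capitals.
Atf3: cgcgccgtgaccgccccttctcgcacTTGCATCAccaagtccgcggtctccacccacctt
Chac1: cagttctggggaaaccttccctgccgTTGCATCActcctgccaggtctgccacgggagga
Asns: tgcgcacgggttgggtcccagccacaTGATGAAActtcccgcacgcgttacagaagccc
Trib3: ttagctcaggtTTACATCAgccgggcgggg
Ppp1r15a: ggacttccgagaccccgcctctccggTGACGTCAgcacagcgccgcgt
The Atf3 stretch is chr1:191183410-191183469 on the minus strand, and its core lies at bases -110 to -103 from the RefSeq start. The Chac1 stretch is chr2:119351023-119351082 on the plus strand, with the core at -193 to -186. In both genes the core reads on the strand opposite to the gene. The Asns stretch, chr6:7693200-7693258 on the minus strand, holds its core at -23 to -16 in the gene's direction. The Trib3 stretch, chr2:152344028-152344057 on the minus strand, holds it after the RefSeq start, at 15 to 22. RefSeq starts can differ from those of the deposited gene spans. That of Trib3 is at 152344032, so its core lies before the deposited start, and the Asns and Atf3 cores lie within their deposited spans. Ppp1r15a carried the cyclic AMP response element and no core, at -12 to -5 within chr7:45526259-45526306 on the minus strand. That element was found in 1 of 9 members, in 0 of 55 genes of the wider list and in 2.03% of the 27025 genes. No match to either motif was found in the windows of Eif2ak3, Atf4, Ddit3 and Sesn2, which says only that these letters are not in these windows.

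The libraries held 17623816 (HFD_CGP), 16297644 (HFD_DMSO) and 17129042 (ND) reads on genes. Ins1 and Ins2 took 19.1% of the HFD_CGP reads, 43.5% of the HFD_DMSO reads and 15.3% of the ND reads. Levels are therefore given as CPM after TMM scaling, read counts relative to library size and corrected for such composition, with exact Poisson 95% intervals that cover counting error only. The 10 beta-cell markers summed to 197179 CPM in HFD_CGP, 586950 CPM in HFD_DMSO and 172632 CPM in ND. Without Ins1 and Ins2 the other 8 summed to 30532 CPM in HFD_CGP, 25774 CPM in HFD_DMSO and 36632 CPM in ND, lowest in HFD_DMSO. Most of this sum was Iapp, with 25147, 22033 and 28835 CPM in the same order. In HFD_DMSO vs ND, 3 of the 8 were called lower, where 13.2% of all genes were. After a correction for transcript GC content 4 of the 10 markers passed as lower and 2 as higher there, and Iapp turned from -0.39 to 0.57. The 4 alpha-cell markers summed to 10748, 5494 and 21758 CPM, so the defining genes of the labelled tissue were present in every library. The 12 acinar markers summed to 142 CPM in HFD_CGP, 5033 CPM in HFD_DMSO and 12887 CPM in ND. In HFD_DMSO vs ND, 7 of the 12 were called lower and 1, Ptf1a, higher, where 13.2% and 12.6% of all genes were. In HFD_CGP vs HFD_DMSO 11 were called lower, where 4.95% of all genes were. Ptf1a had 0 reads in HFD_CGP, 56 in HFD_DMSO and 6 in ND. Bhlha15 did not follow the sum, with 72.9, 67.0 and 43.0 CPM in the same order. Nor did the enzyme gene Pnliprp1, which was highest in HFD_DMSO, with 4.56, 1297 and 796 CPM. In bulk tissue, fewer cells of a type and less RNA per cell cannot be told apart.

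Of the 9 genes, Atf3, Ppp1r15a, Chac1 and Ddit3 rose in HFD_DMSO relative to ND islets. Atf3 fell in HFD_CGP relative to HFD_DMSO islets, and Chac1, Trib3 and Sesn2 rose in HFD_CGP relative to ND islets. Rose and fell are used here for an adjusted p under 0.05 in the authors' deposited table, which assumed a spread between animals instead of measuring one. In HFD_DMSO vs ND, 4 of 9 were called higher and 0 lower, where 12.6% of all genes were called higher and 13.2% lower, or 14.8% and 19.3% of the genes with at least 100 normalized counts in either library. In HFD_CGP vs HFD_DMSO, 0 of 9 were called higher and 1 lower, against 1.4% and 4.95% of all genes, or 1.44% and 4.16% of those with 100 counts. In HFD_CGP vs ND, 3 of 9 were called higher and 0 lower, against 4.57% and 4.36% of all genes, or 6.35% and 6.11% of those with 100 counts. Among those genes the smallest absolute log2 fold change called was 1.04, 1.25 and 1.19 in the 3 comparisons in this order, and the largest not called was 1.25, 1.47 and 1.38. The median log2 fold change of the 9 was 0.98, 0.20 and 0.47 in these comparisons in turn, beside -0.12, 0.04 and -0.06 over all genes tested. After a correction for transcript GC content this median of the 9 was 0.11, 0.35 and -0.0023. It was 0.45, 0.85 and 0.50 with library totals, which also shift all other genes. With library totals in place of TMM, 2 members passed as higher and 2 as lower in HFD_DMSO vs ND, 3 as higher and 1 as lower in HFD_CGP vs HFD_DMSO, and 3 as higher and 0 as lower in HFD_CGP vs ND. The comparisons share libraries, so their values for a gene are given side by side and are not independent.

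**Figure D1:**
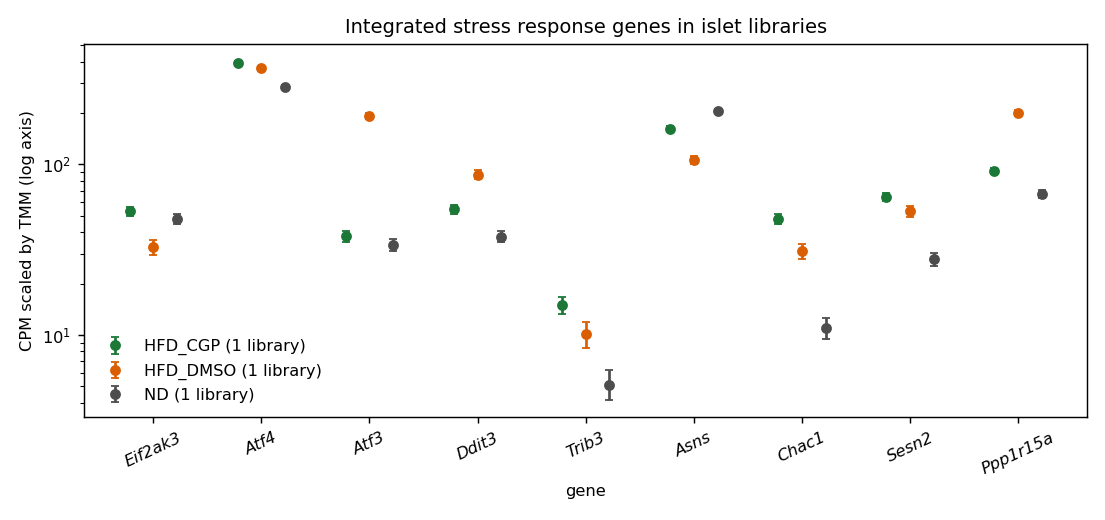
TMM-scaled CPM of each of the 9 genes (log axis) in the HFD_CGP, HFD_DMSO and ND libraries, 1 library per group, with exact Poisson 95% intervals. Atf3 stands at 192 CPM in HFD_DMSO, against 37.8 in HFD_CGP and 33.7 in ND, while Chac1, Trib3 and Sesn2 are highest in HFD_CGP.

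Eif2ak3 encodes PERK, the kinase at the head of the arm (chromosome 6, 70844515 to 70905245, plus strand; positions are those of the deposited tables, which for all 9 genes match GENCODE M21 on GRCm38). It had 1071 reads (53.0 CPM, 49.9 to 56.3) in HFD_CGP, 412 reads (32.6 CPM, 29.5 to 35.9) in HFD_DMSO and 920 reads (47.7 CPM, 44.7 to 50.9) in ND. It was lowest in HFD_DMSO, by more than counting error, but passed the threshold in no comparison. Its log2 fold change was -0.55 for HFD_DMSO vs ND (counting interval -0.72 to -0.38, adjusted p 0.374 in the authors' deposited table). It was 0.61 for HFD_CGP vs HFD_DMSO (adjusted p 0.501) and 0.15 for HFD_CGP vs ND (adjusted p 0.902), both from the authors' deposited table. With library totals in place of TMM, which shift the median of all genes by -0.54, 0.65 and 0.02 in the 3 comparisons, Eif2ak3 passed as lower in HFD_DMSO vs ND at -1.09 and as higher in HFD_CGP vs HFD_DMSO at 1.27. Its exons overlap those of Gm43292 on the opposite strand over 485 bases, and the use of strand in counting is not given in the sources used here.

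Atf4, the transcription factor of the arm (chromosome 15, 80255184 to 80257541, plus strand), was the most abundant of the 9 per kilobase of exon in every library. It reached 168 CPM per kilobase in HFD_CGP, 156 in HFD_DMSO and 121 in ND. Its mRNA had 7979 reads (395 CPM, 387 to 404) in HFD_CGP, 4634 reads (367 CPM, 356 to 378) in HFD_DMSO and 5491 reads (285 CPM, 277 to 292) in ND. The range over the libraries was the narrowest of the 9, at 0.47 on the log2 CPM scale. No comparison was called: the log2 fold change was 0.37 for HFD_DMSO vs ND, 0.02 for HFD_CGP vs HFD_DMSO and 0.47 for HFD_CGP vs ND. The sign for HFD_DMSO vs ND turned to -0.17 with library totals and to -0.30 after a correction for transcript GC content, so that no direction can be given for Atf4.

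Atf3, an immediate transcription factor of the same bZIP class that ATF4 and other stress pathways induce (chromosome 1, 191170296 to 191218039, minus strand), had the widest range of the 9, 2.51 on the log2 CPM scale. It had 764 reads (37.8 CPM, 35.2 to 40.6) in HFD_CGP, 2423 reads (192 CPM, 184 to 200) in HFD_DMSO and 650 reads (33.7 CPM, 31.2 to 36.4) in ND. The HFD_DMSO library stood alone, and HFD_CGP and ND lay close together. Atf3 rose in HFD_DMSO relative to ND by 2.51 on the log2 scale (counting interval 2.38 to 2.64, adjusted p 5.24e-07 in the authors' deposited table). It fell in HFD_CGP relative to HFD_DMSO, at -2.43 (counting interval -2.55 to -2.31, adjusted p 2.65e-06 in the authors' deposited table). Between HFD_CGP and ND it differed by 0.17 and was not called (adjusted p 0.893 in the authors' deposited table). Per kilobase it was second only to Atf4 in HFD_DMSO, at 89.0 CPM per kilobase, but the seventh of the 9 in HFD_CGP at 17.6 and the fifth in ND at 15.6.

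With TMM scaling, the summed markers of stellate cells and fibroblasts, of duct cells and of macrophages were, like Atf3, highest in HFD_DMSO. The 7 stellate cell and fibroblast markers summed to 105 CPM in HFD_CGP, 442 CPM in HFD_DMSO and 22.1 CPM in ND, and all 7 were called higher in HFD_DMSO vs ND. The 6 duct markers summed to 417, 752 and 339 CPM in the same order of libraries, and the 5 macrophage markers to 105, 156 and 52.2 CPM. With library totals the macrophage sums were 120, 121 and 58.8 CPM, so that HFD_CGP and HFD_DMSO lay together. The duct marker Krt7 had 358, 342 and 298 CPM after TMM scaling, highest in HFD_CGP. In HFD_DMSO vs ND, 5 of the 6 duct and 3 of the 5 macrophage markers were called higher, where 12.6% of all genes were. In HFD_CGP vs HFD_DMSO, 6 of the 7 stellate and fibroblast, 5 of the 6 duct and 1 of the 5 macrophage markers were called lower, where 4.95% of all genes were. Of the macrophage markers, 2 were above 0 there, and their median log2 fold change was -0.20. None of these 18 markers was at 0 reads in any library. Other lists did not follow Atf3. The 5 endothelial markers summed to 567 CPM in HFD_CGP, 485 CPM in HFD_DMSO and 188 CPM in ND, and the 4 lymphocyte markers to 16.3, 24.6 and 28.5 CPM. The 9 immediate early genes, which respond within minutes to stress and handling, summed to 2246 CPM in HFD_CGP, 4453 CPM in HFD_DMSO and 2009 CPM in ND. The part of these cells and of immediate early induction in the Atf3 values was not tested.

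Ddit3 encodes CHOP, a C/EBP-family factor downstream of ATF4 that is linked to beta-cell death under prolonged stress (chromosome 10, 127290774 to 127296288, plus strand). It had 1103 reads (54.6 CPM, 51.5 to 58.0) in HFD_CGP, 1096 reads (86.8 CPM, 81.7 to 92.0) in HFD_DMSO and 725 reads (37.6 CPM, 34.9 to 40.4) in ND. HFD_DMSO was highest and ND lowest. It rose in HFD_DMSO relative to ND by 1.21 on the log2 scale (counting interval 1.07 to 1.34, adjusted p 0.0215 in the authors' deposited table). The value was 0.67 with library totals, and the call was lost. For HFD_CGP vs HFD_DMSO it was -0.76 and for HFD_CGP vs ND 0.54, and neither was called. A second gene named Ddit3 overlaps it on the same strand and shares 3.46% of its 75-base sequences, and Gm4189 and Mars overlap it on the opposite strand, and how reads were divided among these genes is not known.

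Ppp1r15a encodes GADD34, the stress-induced subunit that brings protein phosphatase 1 to eIF2α (chromosome 7, 45522916 to 45526268, minus strand). It had 1848 reads (91.5 CPM, 87.4 to 95.8) in HFD_CGP, 2531 reads (200 CPM, 193 to 208) in HFD_DMSO and 1292 reads (67.0 CPM, 63.4 to 70.7) in ND. As for Atf3 and Ddit3, HFD_DMSO was highest and ND lowest. Ppp1r15a rose in HFD_DMSO relative to ND by 1.58 on the log2 scale (counting interval 1.48 to 1.68, adjusted p 0.0018 in the authors' deposited table). In HFD_CGP vs HFD_DMSO it was -1.22 (counting interval -1.31 to -1.13) and missed the threshold, with an adjusted p of 0.0544 in the authors' deposited table. It and Atf3 were the 2 members with a log2 fold change of -1 or lower there, as were 18.8% of all genes and 6.14% of those with 100 counts. Against ND, HFD_CGP was at 0.45 and not called. With library totals Ppp1r15a was weaker in HFD_CGP vs HFD_DMSO, at -0.57, and was not called. In HFD_DMSO vs ND it was then at 1.04 and still passed. Its exons overlap those of Tulp2 on the opposite strand over 12 bases.

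Chac1, which breaks down glutathione and is induced through ATF4, ATF3 and CHOP, gave the largest change of HFD_CGP against ND among the 9 (chromosome 2, 119351229 to 119354381, plus strand). It had 965 reads (47.8 CPM, 44.8 to 50.9) in HFD_CGP, 391 reads (31.0 CPM, 28.0 to 34.2) in HFD_DMSO and 211 reads (10.9 CPM, 9.51 to 12.5) in ND. The order was HFD_CGP over HFD_DMSO over ND, with no overlap of the counting intervals. Chac1 rose in HFD_DMSO relative to ND by 1.50 on the log2 scale (counting interval 1.25 to 1.75, adjusted p 0.00459 in the authors' deposited table). It rose in HFD_CGP relative to ND by 2.13 (counting interval 1.91 to 2.35, adjusted p 0.00014 in the authors' deposited table). The 0.54 between HFD_CGP and HFD_DMSO was not called. With library totals Chac1 passed as higher in HFD_CGP vs HFD_DMSO, at 1.19, and the call for HFD_DMSO vs ND was lost, at 0.96.

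Trib3, a pseudokinase that binds AKT and restrains ATF4 and CHOP (chromosome 2, 152337422 to 152344032, minus strand), was the least abundant of the 9 per kilobase in every library. It had 302 reads (15.0 CPM, 13.3 to 16.7) in HFD_CGP, 127 reads (10.1 CPM, 8.38 to 12.0) in HFD_DMSO and 98 reads (5.08 CPM, 4.12 to 6.19) in ND. The libraries ran in the order seen for Chac1. Trib3 rose in HFD_CGP relative to ND by 1.56 on the log2 scale (counting interval 1.22 to 1.90, adjusted p 0.0122 in the authors' deposited table). It was at 0.98 in HFD_DMSO vs ND and 0.48 in HFD_CGP vs HFD_DMSO, neither called.

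Sesn2 encodes sestrin 2, a leucine-binding inhibitor of mTORC1 signalling (chromosome 4, 132492032 to 132510501, minus strand). It had 1307 reads (64.7 CPM, 61.3 to 68.3) in HFD_CGP, 670 reads (53.0 CPM, 49.1 to 57.2) in HFD_DMSO and 534 reads (27.7 CPM, 25.4 to 30.1) in ND. The HFD_CGP and HFD_DMSO libraries both lay above ND. Sesn2 rose in HFD_CGP relative to ND by 1.23 on the log2 scale (counting interval 1.08 to 1.37, adjusted p 0.0448 in the authors' deposited table), just inside the threshold. It was at 0.94 in HFD_DMSO vs ND and at 0.20 in HFD_CGP vs HFD_DMSO, neither called.

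Asns, asparagine synthetase, a classical ATF4 target, did not share the order of Chac1 and Trib3 (chromosome 6, 7675169 to 7693254, minus strand). It had 3276 reads (162 CPM, 157 to 168) in HFD_CGP, 1345 reads (106 CPM, 101 to 112) in HFD_DMSO and 3956 reads (205 CPM, 199 to 212) in ND. HFD_DMSO was lowest and ND highest. The log2 fold change was -0.95 for HFD_DMSO vs ND (counting interval -1.04 to -0.86, adjusted p 0.078 in the authors' deposited table), 0.52 for HFD_CGP vs HFD_DMSO and -0.34 for HFD_CGP vs ND, and none was called. With library totals Asns passed as lower in HFD_DMSO vs ND, at -1.48, and as higher in HFD_CGP vs HFD_DMSO, at 1.17.

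**Figure D2:**
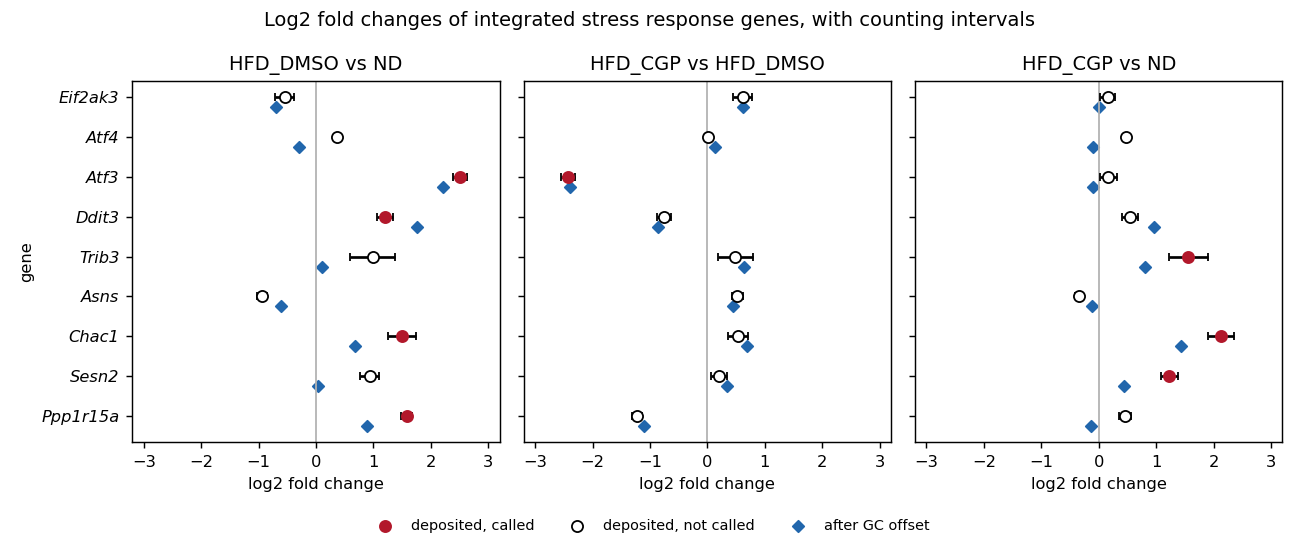
Deposited log2 fold change of the 9 genes in the 3 comparisons (circles, filled where called, with exact binomial 95% counting intervals) and the value after a GC offset (diamonds). Atf3 is far to the right in HFD_DMSO vs ND at 2.51 and far to the left in HFD_CGP vs HFD_DMSO at -2.43, and Chac1 leads HFD_CGP vs ND at 2.13.

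A ratio of reads within 1 library does not depend on how the libraries are scaled. It is still open to the trend by GC content given below, where a gene differs in GC content from Atf4, at 55.5%. Per 100 Atf4 reads there were 9.58 Atf3 reads in HFD_CGP, 52.3 in HFD_DMSO and 11.8 in ND. Ppp1r15a gave 23.2, 54.6 and 23.5 reads per 100 Atf4 reads in the same libraries, so that HFD_CGP and ND lay within each other's counting intervals. Ddit3 behaved alike on this measure, with 13.8 in HFD_CGP, 23.7 in HFD_DMSO and 13.2 in ND. Its GC content is 45.6%. After the GC offset Ddit3 was at 0.96 and Atf4 at -0.093 in HFD_CGP vs ND, neither called. The likeness of HFD_CGP and ND for Ddit3 therefore rests on uncorrected reads.

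The genes for amino acid and glutathione metabolism gave other orders relative to Atf4. Asns had 41.1 reads per 100 Atf4 reads in HFD_CGP (39.4 to 42.8), 29.0 in HFD_DMSO (27.3 to 30.8) and 72.0 in ND (69.1 to 75.1). Chac1 had 12.1, 8.44 and 3.84 in the same order of libraries, highest in HFD_CGP. Trib3 followed Chac1, with 3.78 in HFD_CGP, 2.74 in HFD_DMSO and 1.78 in ND. Sesn2 had 16.4, 14.5 and 9.73, and Eif2ak3 13.4, 8.89 and 16.8. These ratios are not corrected for GC content. After the GC offset Asns was at -0.62 and Atf4 at -0.30 in HFD_DMSO vs ND. In HFD_CGP vs ND, Asns was then at -0.12 and Atf4 at -0.093, and none of these was called. Asns made up 17.6% of the reads of the 9 genes in HFD_CGP, 9.87% in HFD_DMSO and 28.5% in ND, and Atf3 4.10%, 17.8% and 4.68%. The 9 genes together summed to 922 CPM in HFD_CGP, 1079 CPM in HFD_DMSO and 719 CPM in ND, an order that changes with library totals in place of TMM (1056, 836 and 810 CPM).

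**Figure D3:**
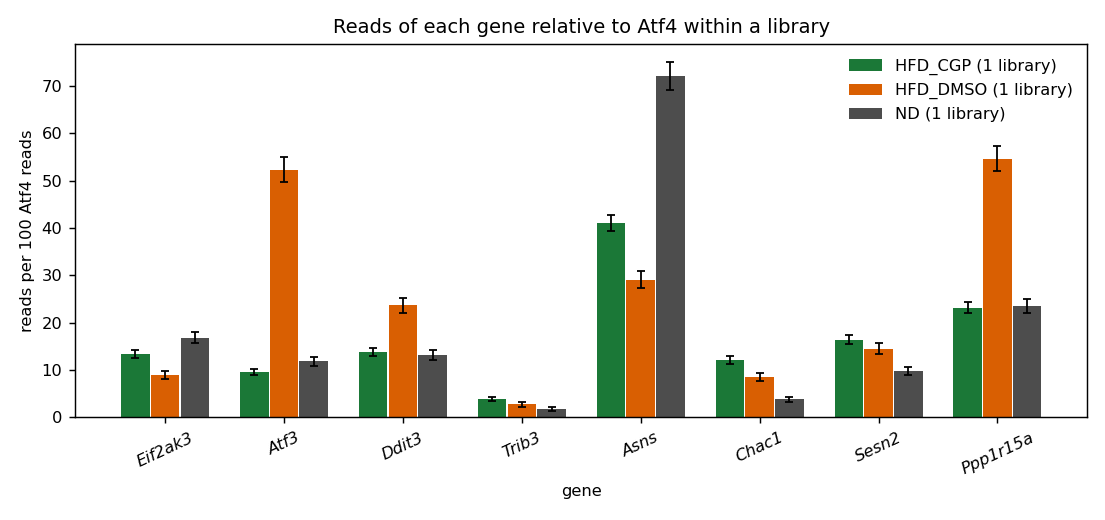
Bars give the reads of the other 8 genes per 100 Atf4 reads within each library, with exact binomial 95% counting intervals. HFD_DMSO is highest for Atf3 (52.3), Ppp1r15a (54.6) and Ddit3 (23.7) and lowest for Asns (29.0) and Eif2ak3 (8.89). The reads are not corrected for GC content.

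Fold changes in these libraries followed the GC content of transcripts, which bears on several of the 9 genes. Across genes with at least 100 normalized counts, Spearman's rho between fold change and GC content was 0.59 for HFD_DMSO vs ND, -0.17 for HFD_CGP vs HFD_DMSO and 0.69 for HFD_CGP vs ND, given as a description since genes are not independent replicates. Over 10 bins of genes by GC content, the median log2 fold change of the lowest bin was -1.12 in HFD_DMSO vs ND and -0.81 in HFD_CGP vs ND, and that of the highest bin was 0.88 and 0.90. Among the 9, GC content was lowest in Ddit3 at 45.6% and Asns at 47.7% and highest in Chac1 at 57.4%, Trib3 at 58.2% and Sesn2 at 58.7%.

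A GC offset per gene left Atf3 at 2.22 and moved Ddit3 to 1.76 in HFD_DMSO vs ND, both still past the threshold. Ppp1r15a at 0.90 and Chac1 at 0.68 no longer passed there. In HFD_CGP vs ND, Chac1 at 1.43 passed, and Trib3 at 0.81 and Sesn2 at 0.44 did not. Atf3 in HFD_CGP vs HFD_DMSO was nearly the same, at -2.39. With 1 library per group, GC content and the groups cannot be told apart as the source of this trend, and its part in the calls that were lost was not tested further.

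**Figure D4:**
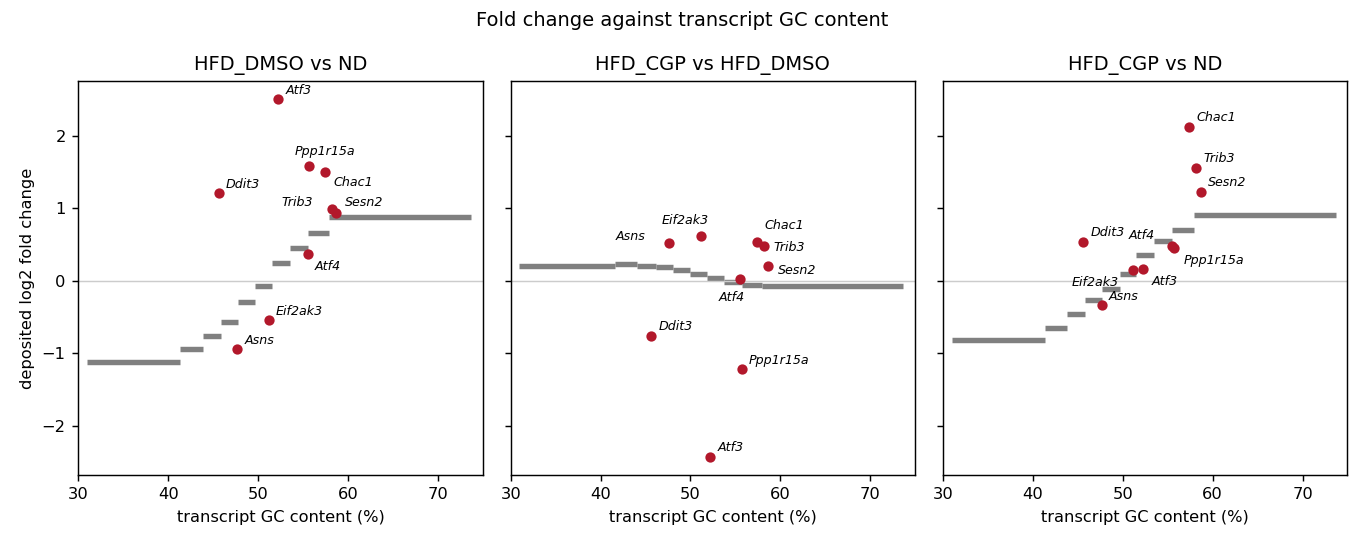
Deposited log2 fold change of the 9 genes against the GC content of their longest transcripts (percent), with grey bars for the median in 10 GC bins of all genes with at least 100 normalized counts. In HFD_DMSO vs ND the bars climb by GC content, with medians of -1.12 in the lowest bin and 0.88 in the highest, and Atf3 and Ddit3 lie far above the bars at their GC content.

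Beyond the 9, a wider list of 71 genes of the pathway was counted. In HFD_DMSO vs ND, 12 rose and 14 fell, and the median was -0.12 on the log2 scale, beside -0.12 over all genes tested. In HFD_CGP vs HFD_DMSO, 3 rose and 0 fell (median 0.25), and in HFD_CGP vs ND, 13 rose and 4 fell (median 0.23). Of the 4, Fgf21, Stc2 and Slc7a3 had at most 47 reads in a library. In HFD_DMSO vs ND, 16.9% of the list rose and 19.7% fell, beside 14.8% and 19.3% of the genes with at least 100 normalized counts. The shares in HFD_CGP vs HFD_DMSO were 4.23% and 0%, beside 1.44% and 4.16%, and in HFD_CGP vs ND, 18.3% rose and 5.63% fell, beside 6.35% and 6.11%. The groups by function below hold 4 to 13 of the 71 genes, and their counts stand beside the same shares. With library totals the list gave 7 higher and 23 lower in HFD_DMSO vs ND, 21 higher and 0 lower in HFD_CGP vs HFD_DMSO, and 14 higher and 4 lower in HFD_CGP vs ND. After the GC offset these counts were 6 and 6, 3 and 1, and 9 and 3.

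Among the eIF2 kinases and their regulators, none of the other kinases was called in any comparison. Eif2ak1, the heme-regulated kinase, had 30.7 CPM in HFD_CGP, 26.1 in HFD_DMSO and 33.3 in ND. Eif2ak2, the double-stranded RNA sensor, had 13.7, 20.7 and 24.0 CPM in the same order, and Eif2ak4, the amino acid sensor GCN2, 24.2, 19.7 and 22.3 CPM. Of their regulators, 3 fell in HFD_DMSO relative to ND: Impact, an inhibitor of GCN2 activation, at -1.90, the adaptor Nck1 at -1.56 and the PERK inhibitor Dnajc3 at -1.19. None of the 3 passed after the GC offset.

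The subunits of eIF2 and of its exchange factor eIF2B differed in their calls. All 3 listed eIF2 subunits fell in HFD_DMSO relative to ND: Eif2s3x at -1.84, Eif2s1, which carries the phosphorylated serine, at -1.32, and Eif2s2 at -1.13. Of the 5 subunits of eIF2B, which phosphorylated eIF2 blocks, Eif2b2 rose at 1.20 and the rest were not called. Eif2s3x was also lower in HFD_CGP than in ND, at -1.49. After the GC offset Eif2s3x at -1.14 was the only one of these to pass in HFD_DMSO vs ND, and Eif2s3x did not pass in HFD_CGP vs ND.

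Among partners of the eIF2 phosphatase, the constitutive subunit Ppp1r15b was not called, with 49.8 CPM in HFD_CGP, 34.7 in HFD_DMSO and 51.1 in ND. The catalytic subunit gene Ppp1ca had 387 reads in HFD_CGP, 56 in HFD_DMSO and 45 in ND. It rose in HFD_CGP relative to HFD_DMSO at 2.02 (adjusted p 0.000814 in the authors' deposited table) and relative to ND at 3.04 (adjusted p 1.04e-07 in the authors' deposited table), and both passed after the GC offset, at 2.15 and 2.42. The catalytic subunit gene Ppp1cb fell in HFD_DMSO relative to ND at -1.48, and did not pass after the GC offset, at -0.53.

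The ATF4 bZIP partners and related regulators, among them the non-bZIP stress gene Nupr1, were above 0 in log2 fold change for 5 of 5 genes in each comparison, although Cebpg in HFD_DMSO vs ND was at 0.26 and turned to -0.27 with library totals, and Cebpb turned to -0.18 after the GC offset. Atf5 rose in HFD_DMSO relative to ND at 1.58 and in HFD_CGP relative to ND at 1.92, with 355 CPM in HFD_CGP, 282 in HFD_DMSO and 94.2 in ND. Cebpb rose in both as well, at 1.15 and 1.60, and Jdp2 rose in HFD_CGP relative to ND at 2.29. Atf5 and Cebpb have GC contents of 61.7% and 67.2%, and neither passed after the GC offset, while Jdp2 did at 1.63.

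Genes of serine, one-carbon and amino acid synthesis went both ways: of 13, 3 rose and 2 fell in HFD_DMSO vs ND, 1 rose in HFD_CGP vs HFD_DMSO and 3 rose in HFD_CGP vs ND. In HFD_DMSO vs ND that is 23.1% higher and 15.4% lower, beside 14.8% and 19.3% of the genes with at least 100 normalized counts. In HFD_CGP vs ND it is 23.1% and 0%, beside 6.35% and 6.11%. After the GC offset, 2 of the 13 passed as higher and 3 as lower in HFD_DMSO vs ND, with a median of -0.36. With library totals these counts were 2 and 4, with a median of -0.58. Mitochondrial serine hydroxymethyltransferase Shmt2, the alanine transaminase Gpt2 and mitochondrial phosphoenolpyruvate carboxykinase Pck2 rose in HFD_DMSO relative to ND, at 1.57, 1.84 and 1.48. The same 3 rose in HFD_CGP relative to ND, at 2.03, 1.55 and 1.31. After the GC offset Gpt2 passed in both comparisons, Shmt2 did not pass in HFD_DMSO vs ND, at 0.75, and Pck2 did not pass in HFD_CGP vs ND, at 1.16. With library totals Pck2 did not pass in HFD_DMSO vs ND, at 0.94. The mitochondrial folate enzyme gene Aldh1l2 had 365 reads in HFD_CGP, 74 in HFD_DMSO and 749 in ND. It fell in HFD_DMSO relative to ND at -2.73 and rose in HFD_CGP relative to HFD_DMSO at 1.54, and both passed after the GC offset, at -2.41 and 1.46.

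Of 9 amino acid transporter genes under ATF4, the neutral amino acid transporter Slc1a5 rose in HFD_DMSO relative to ND at 2.49 and in HFD_CGP relative to ND at 2.04, and passed in both after the GC offset. The leucine transporter Slc7a5 rose in HFD_CGP relative to HFD_DMSO at 1.27 and to ND at 1.25, with 113 CPM in HFD_CGP, 43.9 in HFD_DMSO and 47.3 in ND. Its change against HFD_DMSO passed after the GC offset at 1.40, and that against ND, at 0.63, did not. In HFD_DMSO vs ND, 7 of the 9 were below 0, with a median of -0.12, or -0.56 after the GC offset. Called higher there were 11.1% of the 9, beside 14.8% of the genes with at least 100 normalized counts. Slc7a3, with at most 47 reads in a library, fell in HFD_CGP relative to ND at -2.02 and passed after the GC offset at -1.99.

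Of 13 genes of cytosolic tRNA charging and export, the synthetases Cars at 2.19, Yars at 1.50 and Wars at 1.18 rose in HFD_DMSO relative to ND, and 2 fell, of which Eprs was at -1.43. That is 23.1% higher and 15.4% lower, beside 14.8% and 19.3% of the genes with at least 100 normalized counts. Cars at 1.81 and Yars at 1.59 also rose in HFD_CGP relative to ND, and none of the 13 was called in HFD_CGP vs HFD_DMSO. After the GC offset Cars and Yars passed in both comparisons, and in HFD_DMSO vs ND Wars at 0.75 and Eprs at -0.72 did not, which left 2 of the 13 higher and 0 lower. With library totals Wars at 0.64 and Yars at 0.96 did not pass in HFD_DMSO vs ND. Of 12 stress, growth arrest and secreted targets, 2 rose and 3 fell in HFD_DMSO vs ND and 2 rose and 2 fell in HFD_CGP vs ND. The proapoptotic gene Bbc3 rose in HFD_DMSO relative to ND at 2.01 and in HFD_CGP relative to ND at 1.42, and passed in neither after the GC offset, at 0.77 and 0.38 with a GC content of 65.2%. The translation repressor gene Eif4ebp1 rose in HFD_CGP relative to ND at 1.47 and passed after the GC offset at 1.63. Vldlr at -1.54, the oxidase gene Ero1l at -1.50 and Klhl24 at -1.23 fell in HFD_DMSO relative to ND, and none of these 3 passed after the GC offset.

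**Figure D5:**
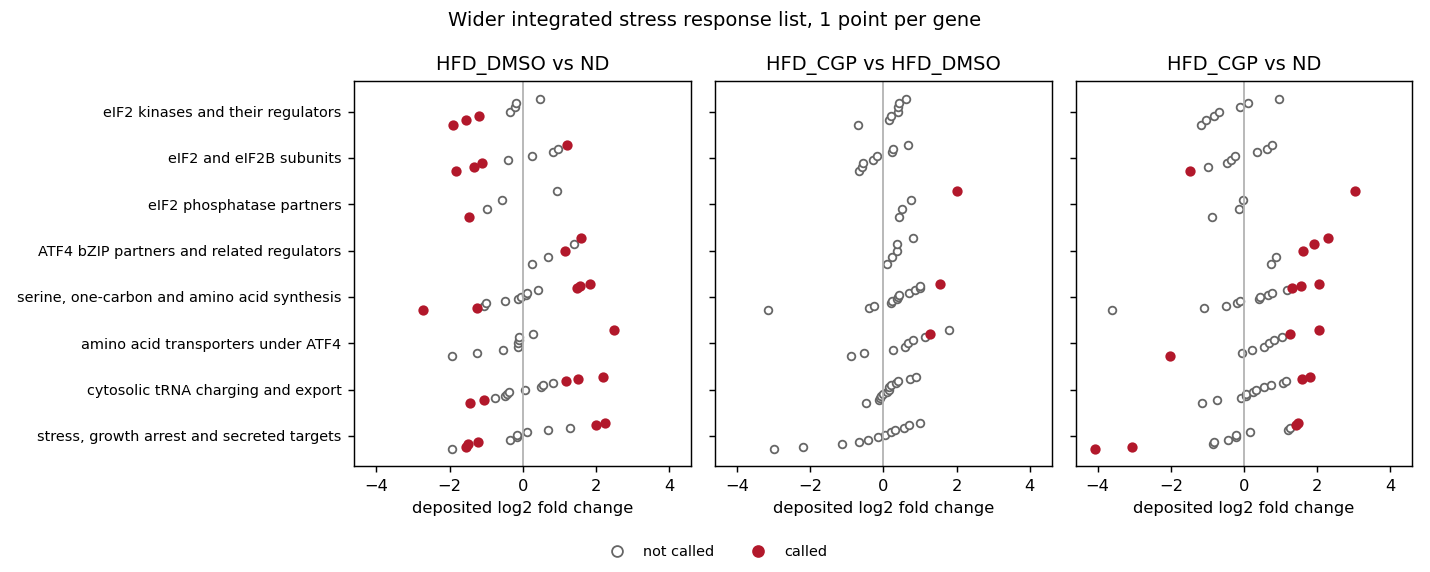
Deposited log2 fold change of the 71 genes of the wider list in 3 panels, 1 per comparison, 1 point per gene in rows by function, filled where called. Calls lie on both sides in HFD_DMSO vs ND (12 higher, 14 lower) and mostly to the right in HFD_CGP vs ND (13 higher, 4 lower).

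The other arms of the unfolded protein response, run by IRE1 and ATF6, were set beside the PERK arm with 10 genes. In HFD_DMSO vs ND, 0 rose and 4 fell, among them the IRE1 gene Ern1 at -1.71, Dnajb9 at -1.36 and Pdia4 at -1.15, with a median of -0.82. There 13.2% of all genes were called lower, and 19.3% of those with at least 100 normalized counts. In HFD_CGP vs HFD_DMSO, Ern1 rose at 1.50 and the other 9 were not called, and in HFD_CGP vs ND none was called. The 10 genes summed to 3727 CPM in HFD_CGP, 3619 CPM in HFD_DMSO and 5152 CPM in ND. After the GC offset the median in HFD_DMSO vs ND was -0.24 and 2 genes passed as lower: Ern1 at -1.78 still passed, Xbp1 passed at -1.09, and Dnajb9 at -0.41 and Pdia4 at -0.81 did not. The difference between the arms was not tested.

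The 3 protein-coding genes whose pair of log2 fold changes, HFD_DMSO vs ND and HFD_CGP vs HFD_DMSO, lay nearest to that of Atf3 were sought among 11020 genes with at least 100 reads in a library. They were Tmem173 at a Euclidean distance of 0.137, St3gal4 at 0.146 and Clu at 0.168, measured over 3 libraries. Clu, which encodes the secreted chaperone clusterin, had 2730 reads in HFD_CGP, 9665 in HFD_DMSO and 2495 in ND. St3gal4, a sialyltransferase gene, had 120, 393 and 116 reads, and Tmem173, which encodes the DNA-sensing adaptor STING, 39, 117 and 29 reads.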

How the data were processed

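Per the labels' protocols, islets were frozen, total RNA was extracted with Trizol, and 1 ug went into an Illumina TruSeq preparation. DESeq2 1.10.1 is named in the submitters' processing notes, with no role given. The sources used here do not give the aligner, counter, build or strand use. The authors deposited, per pair of groups, a signal value per library, a log2 fold change with the first-named group on top, and raw and adjusted p-values. The deposited signal of each gene was a constant plus a whole number of reads times the value of 1 read, so reads were recovered (100% within 0.1 of a whole number, 0 genes differing between tables). EdgeR 4.0.16's exact test with TMM and a fixed coefficient of variation of 0.2 on these reads gave 0 calls that differ from the deposited ones, which was found by recomputation; that spread was assumed by the authors, not estimated. Calls and fold changes of single genes are those of the deposited table, although the design had set recomputed fold changes, which differed by at most 0.00043. Levels use TMM over the 3 libraries. Alternatives were library totals, DESeq2 1.42.0 size factors, other assumed spreads, a count filter and a GC offset (lowess, span 0.3, edgeR likelihood ratio test). Coordinates are those of the deposited tables; all 9 genes have the same positions in GENCODE M21 (GRCm38), which supplied GC content. Promoters are RefSeq's, GRCm38.p6. Members and lists were chosen with earlier results of these data known. Named were all 9 members, the called genes of each wider sublist with at least 100 reads, up to 4 per comparison by fold change, the other eIF2 kinases and Ppp1r15b.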

Additional observations from a re-analysis of the deposited data

How the results depend on the processing

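No paired analysis was possible because each group has 1 library. The calls rest on the assumed coefficient of variation of 0.2: with 0.4, every count that was above 0 fell to 0 (members and wider list, all 3 comparisons). With 0.1, 2 members were called lower in HFD_DMSO vs ND, and 1 higher and 3 lower in HFD_CGP vs HFD_DMSO. With 0.1 the wider list gave 22 higher in HFD_DMSO vs ND, 18 higher and 6 lower in HFD_CGP vs HFD_DMSO, and 29 higher and 16 lower in HFD_CGP vs ND. With library totals, 2 members were higher and 2 lower in HFD_DMSO vs ND and 3 higher in HFD_CGP vs HFD_DMSO, and the wider list gave 7 higher and 23 lower in HFD_DMSO vs ND and 21 higher in HFD_CGP vs HFD_DMSO. Atf4 in HFD_DMSO vs ND turned to -0.17 with library totals. With the GC offset, members called higher were 2 in HFD_DMSO vs ND and 1 in HFD_CGP vs ND. The wider list then gave 6 higher and 6 lower in HFD_DMSO vs ND and 1 lower in HFD_CGP vs HFD_DMSO. The GC offset turned Atf4 to -0.30 in HFD_DMSO vs ND, and in HFD_CGP vs ND it turned Eif2ak3 to -0.0023, Atf4 to -0.093, Atf3 to -0.094 and Ppp1r15a to -0.13, none of them called. By a log2 fold change of at least 1 with no test, 2 members were lower in HFD_CGP vs HFD_DMSO, and the wider list gave 6 higher and 4 lower there and 9 lower in HFD_CGP vs ND. A likelihood ratio test with no GC offset, chosen after seeing the data, called 2 members and 1 wider gene lower in HFD_CGP vs HFD_DMSO, Ppp1r15a among them at an adjusted p of 0.0396 from edgeR. With C at the degenerate position of the promoter core, 2 of 9 members matched in place of 4. Size factors by median ratio, totals without insulin and acinar genes, a minimum of 100 reads over the pair, and log2 of CPM plus 1 moved no count by over 1.5 times and no member across the threshold or through 0. Beyond the scaling and the offset themselves, the cause of these shifts was not tested. The spread between animals is unknown. Counting error was widest for Trib3, with 98 reads in ND and a counting interval of 0.59 to 1.38 for HFD_DMSO vs ND.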

Other observations

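Immediate early genes, which encode transcription factors and regulators induced within minutes of a stimulus, were highest in the HFD_DMSO library. Of the 9 tested, 6 were called higher in HFD_DMSO vs ND in the authors' deposited table, among them Ier2 at 2.38, Ier3 at 2.04 and Fosb at 1.35. The median log2 fold change of the 9 was 1.21. There 12.6% of all genes were called higher, and 14.8% of those with at least 100 normalized counts. In HFD_CGP vs HFD_DMSO, 3 of the 9 were called lower, Ier3 at -1.87, Ier2 at -1.70 and Fosb at -1.65, with a median of -0.96. There 4.95% of all genes were called lower, and 4.16% of those with 100 counts. In HFD_CGP vs ND none of the 9 was called, with a median of 0.26. Fosb had 313 CPM in HFD_CGP, 923 CPM in HFD_DMSO and 363 CPM in ND. After the GC offset 2 of the 9 passed as higher in HFD_DMSO vs ND and 3 as lower in HFD_CGP vs HFD_DMSO. With library totals 2 passed as higher in HFD_DMSO vs ND and 1, Ier3, as lower in HFD_CGP vs HFD_DMSO. Btg2 was the one of the 9 nearest to no change in HFD_DMSO vs ND, at 0.16.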
